A study of Mus musculus with 27 samples.

Results

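7 of the Jumonji histone demethylases, the enzymes that remove methyl groups from lysines 9 and 36 of histone H3, were followed here through reprogramming. They are Kdm2a, Kdm2b, Kdm3a, Kdm3b, Kdm4a, Kdm4b and Kdm4c, and they were chosen by gene symbol from the 20156 genes of the expression tables, for their role and their need of vitamin C. All 7 are in the tables and all 7 were above the expression filter of a mean of 0.5 FPKM (fragments scaled to transcript length and to the number of mapped fragments), which 12401 genes passed. The study compared mouse embryonic fibroblasts (MEFs), pre-iPSCs, which are stable intermediates of reprogramming, and induced pluripotent stem cells (iPSCs). Expression was measured by RNA-seq in 6 libraries, 2 per cell type. Nucleosomes were measured in 21 libraries by ChIP-seq on chromatin cut with micrococcal nuclease, 2 per cell type for H3, H3K4me3 and H3K27me3 and 1 per cell type for H3K9me3.

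The MEFs came from e13.5 embryos that carried an Oct4-GFP transgene and a Rosa26 allele, 1 copy of each. The embryos came from a cross of several mouse strains, a background that the pre-iPSCs and iPSCs share. The pre-iPSCs and iPSCs were made from such fibroblasts with retroviruses for Oct4, Sox2, Klf4 and c-Myc, so that the factor genes of both can be read from the viruses as well as from the genome. They were grown in serum and LIF on a layer of growth-arrested MEFs, and no group analysed here is described as treated with vitamin C. The paper took the pre-iPSCs and iPSCs from an earlier report, which it also cites for the conversion of pre-iPSCs by vitamin C. Whether these iPSCs were derived with vitamin C is not given in the sources used here. The pre-iPSCs were stable clones and the iPSCs their derivatives, but which clone a library came from is not given in the sources used here. MEF chromatin was digested with another amount of nuclease and for another time than that of the other cells, so for the chromatin data the digestion and the cell type cannot be told apart in any comparison with MEFs. For RNA-seq the MEFs had fewer passages than the pre-iPSCs and iPSCs, which had 6. Passage number and cell type thus cannot be told apart in expression comparisons with MEFs. The methods call the replicates biological. Nothing in the labels says how separate their cultures were, so p-values measure the spread between these libraries.

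Jumonji demethylases are oxygenases that need iron, oxygen and 2-oxoglutarate, and vitamin C keeps the iron in its reduced, working state. Kdm2a and Kdm2b remove methyl groups from H3K36 and have a zinc finger that binds unmethylated CpG. Kdm3a and Kdm3b act on mono- and dimethylated H3K9, and Kdm4a, Kdm4b and Kdm4c on trimethylated H3K9 and H3K36. H3K9 methylation is a mark of silent chromatin and is known as a barrier to reprogramming, and H3K36 methylation marks transcribed gene bodies.

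All 7 enzymes were expressed in all 6 libraries, between 2.01 and 26.4 FPKM. They ranked between percentile 54.3 and 89.2 of all genes of their library. Kdm3a rose from MEFs to pre-iPSCs, and Kdm2b, Kdm3a and Kdm4c were higher in iPSCs than in MEFs, by 2.57 to 3.62 times in mean FPKM. No enzyme passed the test between pre-iPSCs and iPSCs. Bulk values cannot tell fewer cells that express a gene from less RNA per cell.

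**Figure D1:**
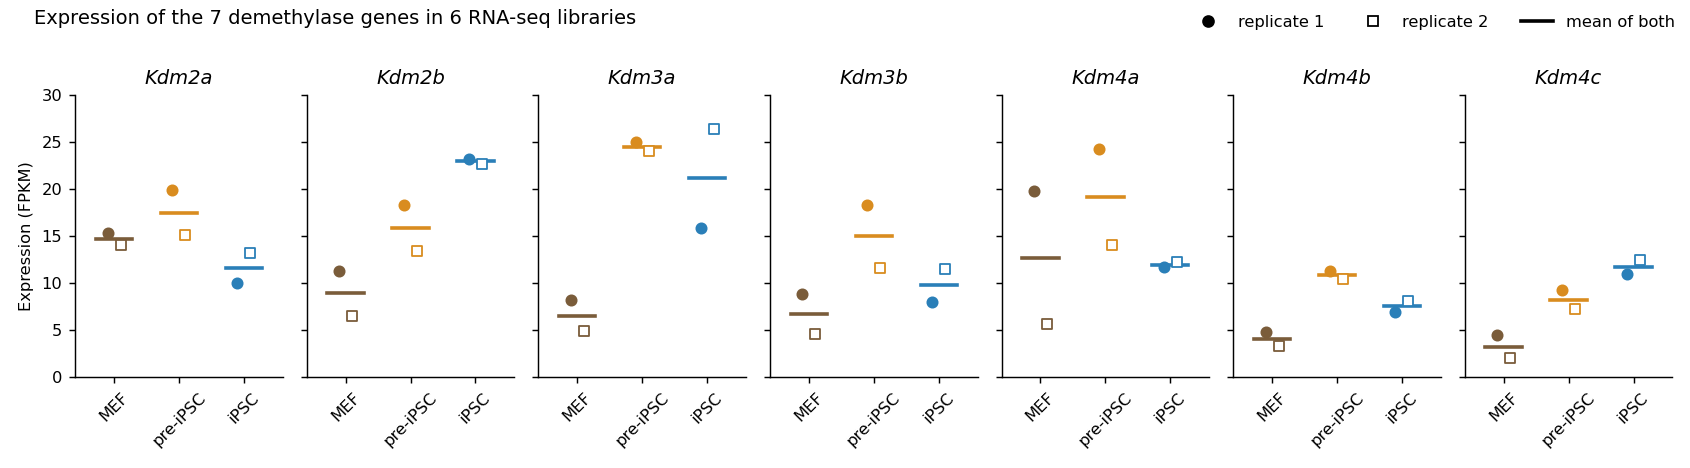
FPKM of the 7 demethylases (vertical axis, linear, from 0) in MEFs, pre-iPSCs and iPSCs. Circles are replicate 1, squares replicate 2 and bars the mean of both. MEF replicate 2 lies under MEF replicate 1 in every panel, and the 2 iPSC libraries of Kdm2b, at 23.2 and 22.7 FPKM, lie above all libraries of the other cell types.

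Of the H3K36 enzymes, Kdm2b was called in 1 comparison and Kdm2a in 0, and the difference between them was not tested. Kdm2a lies on chromosome 19 (chr19:4316147-4397077 of mm9, minus strand). It was measured at 15.3 and 14.1 FPKM in MEF replicates 1 and 2, at 20.0 and 15.1 in those of pre-iPSCs and at 10.1 and 13.3 in those of iPSCs. The iPSC libraries were the lowest, below both MEF and both pre-iPSC libraries, while MEFs and pre-iPSCs overlapped. Kdm2a was not called in any comparison, with log2 changes of 0.23 in pre-iPSCs and -0.32 in iPSCs against MEFs (SE 0.36 each, adjusted p 0.73 and 0.56, limma). Kdm2b, a subunit of the Polycomb complex PRC1.1 as well as a demethylase, lies at chr5:123320685-123439101 (minus strand). It was measured at 11.3 and 6.57 FPKM in the MEF libraries, 18.4 and 13.47 in those of pre-iPSCs and 23.2 and 22.7 in those of iPSCs. The 3 cell types did not overlap, with MEFs lowest and iPSCs highest. Against MEFs, iPSCs were higher by 1.31 on the log2(FPKM + 1) scale, past the threshold (SE 0.36, adjusted p 0.0335, limma), while pre-iPSCs at 0.79 were not (SE 0.36, adjusted p 0.18, limma).

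The H3K9 enzymes Kdm3a and Kdm3b were both lowest on average in MEFs. Kdm3a, a demethylase of mono- and dimethylated H3K9 whose gene is known to respond to low oxygen, lies at chr6:71538966-71582680 (minus strand). It was measured at 8.22 and 4.90 FPKM in the MEF libraries, 25.0 and 24.0 in those of pre-iPSCs and 15.9 and 26.4 in those of iPSCs. Both MEF libraries were below all 4 others, the pre-iPSC libraries were close to each other, and the iPSC libraries lay on either side of them. Kdm3a rose in pre-iPSCs by 1.79 (SE 0.42, adjusted p 0.0266, limma) and was higher in iPSCs than in MEFs by 1.55 (SE 0.42, adjusted p 0.0326). In single replicates the fold of pre-iPSCs over MEFs was 3.04 and 4.90, and that of iPSCs over MEFs 1.93 and 5.39. Kdm3b, its closest relative, lies on chromosome 18 (chr18:34936662-34999024, plus strand). It was measured at 8.87 and 4.57 FPKM in the MEF libraries, 18.3 and 11.7 in those of pre-iPSCs and 8.06 and 11.6 in those of iPSCs. The pre-iPSC libraries were above all others, replicate 2 only just above the nearest iPSC library, and iPSCs overlapped with MEFs. Its log2 changes against MEFs, 1.08 in pre-iPSCs (SE 0.43, adjusted p 0.14, limma) and 0.52 in iPSCs (SE 0.43, adjusted p 0.41, limma), did not pass.

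Of the KDM4 enzymes, which act on trimethylated H3K9 and H3K36, Kdm4c was called in iPSCs against MEFs, and differences between the enzymes were not tested. Kdm4a (chr4:117809609-117852648, minus strand) was measured at 19.8 and 5.63 FPKM in the MEF libraries, 24.3 and 14.0 in those of pre-iPSCs and 11.7 and 12.2 in those of iPSCs. The MEF replicates spanned the values of the iPSCs and overlapped with those of the pre-iPSCs, so that the mean of 12.7 ± 10.0 FPKM (SD, n = 2) of MEFs says little of its level there. Its log2 change was 0.73 in pre-iPSCs (SE 0.46, adjusted p 0.33, limma) and 0.14 in iPSCs (SE 0.46, adjusted p 0.85, limma) against MEFs.

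Kdm4b (chr17:56465473-56542296, plus strand) was measured at 4.80 and 3.31 FPKM in the MEF libraries, 11.3 and 10.4 in those of pre-iPSCs and 6.98 and 8.11 in those of iPSCs. The 3 cell types did not overlap, with pre-iPSCs highest. Its change of 1.25 from MEFs to pre-iPSCs missed the threshold (SE 0.37, adjusted p 0.0618, limma), and so did the change of 0.77 from MEFs to iPSCs (SE 0.37, adjusted p 0.17). Kdm4c (chr4:73897783-74051768, plus strand) was measured at 4.46 and 2.01 FPKM in the MEF libraries, 9.28 and 7.26 in those of pre-iPSCs and 11.0 and 12.5 in those of iPSCs. Again the cell types did not overlap, here in the order of reprogramming. Kdm4c was higher in iPSCs than in MEFs by 1.65 (SE 0.40, adjusted p 0.0235, limma), which is 3.62-fold in mean FPKM, and its change of 1.18 in pre-iPSCs did not pass (SE 0.40, adjusted p 0.0905).

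Between pre-iPSCs and iPSCs 0 of the 7 enzymes passed the test, and the values follow as a description. Kdm2b and Kdm4c were higher in iPSCs in both libraries, with means 1.44 and 1.42 times those of pre-iPSCs. Kdm2a, Kdm3b, Kdm4a and Kdm4b were lower in both iPSC libraries than in both pre-iPSC libraries, with ratios of means between 0.624 and 0.694. Kdm3a overlapped. The limma changes were between -0.59 and 0.52 with adjusted p between 0.459 and 0.815, and 0 of the 7 had an unadjusted p below 0.05, beside 21.6% of all genes. Leaving out iPSC replicate 1 turned Kdm3a, Kdm3b and Kdm4a to the positive side, up to 0.28, again without a call.

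Counted against all genes tested, 1 of the 7 enzymes was called in pre-iPSCs against MEFs, beside 16.4% of the 12401 genes in either direction. In iPSCs against MEFs 3 of 7 were called, beside 25.9% of all genes, and in iPSCs against pre-iPSCs 0 of 7, beside 8.62%. All 4 calls were in the higher direction, which held 7.39% of all genes in pre-iPSCs against MEFs and 10.3% in iPSCs against MEFs (9% and 15.5% in the lower direction). In iPSCs against pre-iPSCs 3.91% of all genes were higher and 4.71% lower. Libraries of the 2 cell types did not overlap for 5 enzymes in pre-iPSCs against MEFs, all 5 higher, which was so for 24.6% of all genes, and 0 were lower, beside 29.3%. In iPSCs against pre-iPSCs 2 enzymes were higher without overlap, beside 20.9% of all genes, and 4 lower, beside 31.1%. In iPSCs against MEFs 4 were higher, beside 26.7%, and 1 lower, beside 36.2%. The median log2 change of the 7 was 1.08 from MEFs to pre-iPSCs, -0.48 from pre-iPSCs to iPSCs and 0.77 from MEFs to iPSCs. Over all genes the medians were -0.04, -0.09 and -0.14.

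**Figure D2:**
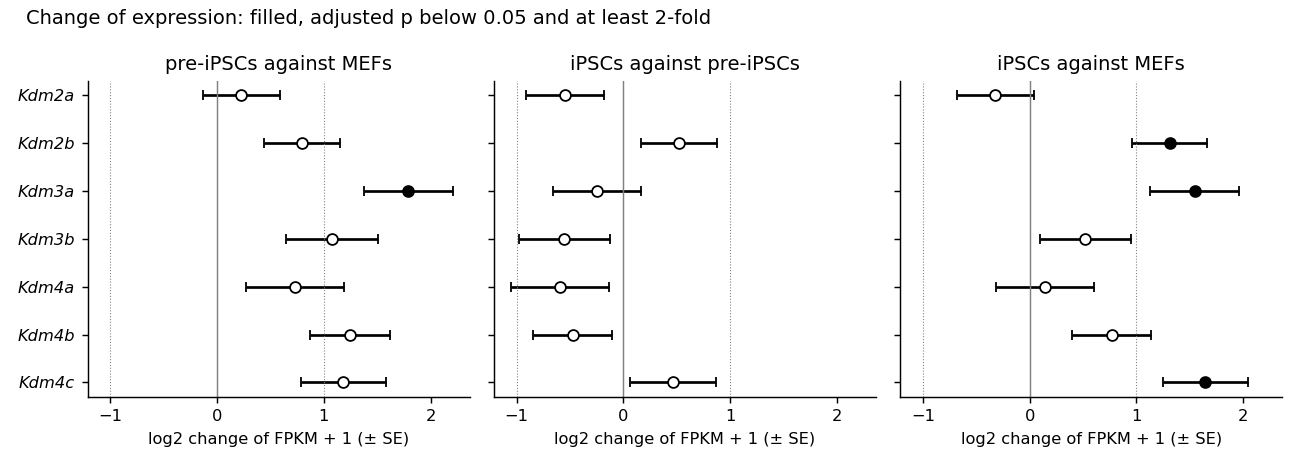
Log2 change of FPKM + 1 for each demethylase in the 3 comparisons, with the limma estimate as a point, its standard error as a bar and filled points for called genes (adjusted p below 0.05 and at least 2-fold). Kdm3a is called in both comparisons with MEFs, Kdm2b and Kdm4c in iPSCs against MEFs, and no point is filled in iPSCs against pre-iPSCs.

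The calls rest on few libraries, and the MEF replicates were not alike for these genes. All 7 enzymes were lower in MEF replicate 2 than in replicate 1 and in pre-iPSC replicate 2 than in replicate 1, and 1 of 7 in iPSC replicate 2, whereas the median difference over all genes tested was -0.05, -0.14 and -0.02 on the log2 scale. The FPKM of all genes summed to 818207 in MEF replicate 2 and to between 392424 and 527799 in the other 5 libraries. The 10 genes of highest FPKM held 12.2% of the sum in MEF replicate 2, 14.0% in iPSC replicate 1 and 8.56% to 10.1% in the other 4. The part of this in the results was not tested. Without MEF replicate 1, 5 enzymes were called in pre-iPSCs against MEFs, namely Kdm3a, Kdm3b, Kdm4a, Kdm4b and Kdm4c, with log2 changes from 1.38 for Kdm4a to 2.27 for Kdm3a. This fit called 23.1% of all genes in that comparison, and in iPSCs against MEFs 29.8%. Without MEF replicate 2, 0 enzymes were called in either comparison with MEFs, beside 19% of all genes in pre-iPSCs and 27.3% in iPSCs, so the share of all genes called did not fall there. Kdm3a then had a change of 1.31 in pre-iPSCs (adjusted p 0.0534, limma), and in iPSCs the adjusted p were 0.0942 for Kdm2b, 0.0989 for Kdm3a and 0.0833 for Kdm4c. The 3 calls in iPSCs against MEFs were also lost without iPSC replicate 1, iPSC replicate 2 or pre-iPSC replicate 1, and without pre-iPSC replicate 2 the call of Kdm4c was kept (adjusted p 0.0495, limma). Of all genes 5.28%, 9.35%, 22.1% and 22.3% were called in these fits. The call of Kdm3a in pre-iPSCs was lost without either pre-iPSC library (adjusted p 0.178 without replicate 1 and 0.176 without replicate 2, limma), where 11% and 8.27% of all genes were called. In these fits the lone library of a cell type was taken to vary like the others.

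Marker genes were checked against the labels. The summed FPKM of 10 fibroblast genes was 5175 and 11249 in the MEF libraries, 450 and 528 in those of pre-iPSCs and 216 and 331 in those of iPSCs, and all 10 were at 1 FPKM or more in every library. The pre-iPSCs and iPSCs were grown on fibroblast feeders, whose part in these libraries was not tested. Of 10 pluripotency genes, all were at 1 FPKM or more in both iPSC libraries and 6 in the pre-iPSC libraries, where Zfp42, Dppa3 and Esrrb were below 0.1 FPKM. Their sum was 25.3 and 38.6 FPKM in the MEF libraries, 1578 and 4477 in those of pre-iPSCs and 2447 and 2400 in those of iPSCs. Pou5f1 (Oct4), which can also be read from the virus, made up 378 and 3184 FPKM of the sums of the pre-iPSC libraries and 586 and 397 of those of iPSCs. The summed level of 8 epithelial genes was 4.93 and 5.79 FPKM in the MEF libraries, 94.9 and 38.4 in those of pre-iPSCs and 142 and 174 in those of iPSCs. The part of these sums in the demethylase values was not tested.

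The order of the 7 enzymes by mean FPKM changed with the cell type. In MEFs it was Kdm2a, Kdm4a, Kdm2b, Kdm3b, Kdm3a, Kdm4b and Kdm4c, and only Kdm3a and Kdm4b were neighbours whose libraries did not overlap. In pre-iPSCs Kdm3a came first with 24.5 ± 0.687 FPKM (SD, n = 2), followed by Kdm4a, Kdm2a, Kdm2b, Kdm3b, Kdm4b and Kdm4c, with gaps between Kdm3b and Kdm4b and between Kdm4b and Kdm4c only. In iPSCs Kdm2b came first with 23.0 ± 0.341 FPKM, followed by Kdm3a, Kdm4a, Kdm4c, Kdm2a, Kdm3b and Kdm4b, with a gap between Kdm3a and Kdm4a only.

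The genes most like each enzyme were found by Pearson correlation of log2(FPKM + 1) over the 6 libraries, which fall into 3 cell types and 2 tables, so that high values are common. Fanci and Mcm10, which act in DNA repair and DNA replication, followed Kdm2b with r = 0.999 and 0.998. For Kdm3a these were Pwwp2a and Exosc8 (0.997 and 0.994), for Kdm4b Socs7 and Azi1 (0.998 and 0.994), and for Kdm4c Ipmk and Cep57 (0.995 each). Gstcd and Trrap (0.997 and 0.996) were nearest to Kdm4a, AI464131 and Oxr1 (0.997 and 0.979) to Kdm2a, and Rem2 and Foxo3 (0.987 and 0.986) to Kdm3b. The number of genes above r = 0.95 was 179 for Kdm2b, 144 for Kdm4c and 9 for Kdm2a.

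Among 22 other Jumonji C proteins, 21 were tested and 2 rose from MEFs to pre-iPSCs, with a median log2 change of 0.66 for the list. They are Jarid2, a subunit of the Polycomb complex PRC2 without demethylase activity, and Jhdm1d, a demethylase of H3K9 and H3K27. Jarid2 was measured at 2.86 and 1.26 FPKM in the MEF libraries, 21.8 and 15.5 in those of pre-iPSCs and 32.2 and 34.0 in those of iPSCs. It was the Jumonji gene of the list with the largest change, 2.72 in pre-iPSCs (adjusted p 0.0043, limma) and 3.53 in iPSCs (adjusted p 0.0014) against MEFs. Jhdm1d was at 0.799 and 0.712 FPKM in the MEF libraries, 4.86 and 11.8 in those of pre-iPSCs and 0.876 and 2.93 in those of iPSCs, and rose by 2.30 in pre-iPSCs (adjusted p 0.0116, limma). In iPSCs against MEFs 3 of the 21 were higher, Jarid2, the H3K4 demethylase Kdm5b (1.88, adjusted p 0.0124, limma) and Hspbap1 (1.87, adjusted p 0.0104, limma), and 1 was lower. Between pre-iPSCs and iPSCs 0 of 21 were called.

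Of the enzymes that write the same marks, 0 of 5 H3K36 methyltransferases were called in any comparison, with medians of 0.14, -0.32 and -0.10. Of 6 H3K9 methyltransferases, Suv39h2, which trimethylates H3K9, was higher in iPSCs than in MEFs by 1.43 (adjusted p 0.0310, limma), and the other calls were 0, with medians of 0.71, -0.23 and 0.32. Both flavin demethylases were tested, and Kdm1a was higher in iPSCs than in MEFs by 1.15 (adjusted p 0.0428, limma), with medians of 0.85, -0.11 and 0.74 for the pair. Of the Tet dioxygenases, which oxidize methylcytosine with the same cofactors, Tet2 rose by 1.78 in pre-iPSCs (adjusted p 0.0268, limma) and was higher by 1.59 in iPSCs (adjusted p 0.0294) than in MEFs, with 2 of 3 tested and 0 called between pre-iPSCs and iPSCs. Tet1 was not analysed here.

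Of 9 PRC1.1 partners of Kdm2b, Yaf2 fell by 1.43 from MEFs to pre-iPSCs (adjusted p 0.0426, limma). In iPSCs against MEFs Yaf2 was lower (-1.80, adjusted p 0.0137, limma) and Rybp, which takes the place of Yaf2 in PRC1, was higher (1.48, adjusted p 0.0253, limma). The other 7 partners were not called in any comparison, and the medians of the 9 were 0.28, 0.21 and 0.06.

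Of 8 genes that make, carry or recycle vitamin C, 5 were tested. The glucose transporters Slc2a3 and Slc2a1, which also carry dehydroascorbate, rose from MEFs to pre-iPSCs by 4.43 and 2.13 (adjusted p 0.00504 and 0.0137, limma), and the dehydroascorbate reductase Gsto2 fell by 1.73 (adjusted p 0.0209). Slc2a3 was measured at 0.894 and 0.999 FPKM in the MEF libraries, 67.8 and 24.4 in those of pre-iPSCs and 119 and 342 in those of iPSCs. Gsto1, the related reductase, was at 475 and 1343 FPKM in the MEF libraries, 274 and 254 in those of pre-iPSCs and 51.6 and 59.5 in those of iPSCs, and fell by 2.23 from pre-iPSCs to iPSCs (adjusted p 0.0401, limma). In iPSCs against MEFs 2 were higher and 2 lower, and the medians of the 5 were 0.14, 0.28 and 0.60. Both lower calls and the call of Slc2a1 in iPSCs against MEFs were lost when either iPSC library was left out. The ascorbate transporter Slc23a1 and the synthesis genes Gulo and Rgn were below the filter.

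The collagen hydroxylases use vitamin C in the secretory pathway. From MEFs to pre-iPSCs 4 of 9 fell, beside 9% of all genes, with a median of -1.19. In iPSCs 7 of 9 were lower than in MEFs, beside 15.5%, with a median of -1.69. Between pre-iPSCs and iPSCs 0 of 9 were called (median -0.31). The count in iPSCs was 0 without iPSC replicate 1, 3 without iPSC replicate 2, 4 after quantile normalization and 3 with no filter on low values. In pre-iPSCs it was 1 without pre-iPSC replicate 1, 2 without pre-iPSC replicate 2 or either iPSC library, 2 after quantile normalization or with no replicate block, and 0 with no filter. The fits named here without 1 library, and those with no filter, also called fewer of all genes than the main fit. With no filter 0 of 20156 genes were called in pre-iPSCs against MEFs. P4ha3, a collagen prolyl hydroxylase, was at 36.6 and 24.1 FPKM in the MEF libraries, 3.52 and 1.33 in those of pre-iPSCs and 2.24 and 2.61 in those of iPSCs. It fell by 3.24 to pre-iPSCs (adjusted p 0.0034, limma). The collagen hydroxylases are genes of collagen-producing cells. The summed FPKM of the fibroblast genes given above was also lower in pre-iPSCs and iPSCs than in MEFs. Its part in these changes was not tested.

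Of 10 genes of the hypoxia response, 2 rose and 1 fell in pre-iPSCs, 1 rose and 1 fell from pre-iPSCs to iPSCs, and 2 were higher and 1 lower in iPSCs than in MEFs, with medians of 0.09, -0.19 and 0.28. Egln3, a prolyl hydroxylase of the hypoxia factor, rose by 3.69 from MEFs to pre-iPSCs (adjusted p 0.00577, limma) and adrenomedullin, Adm, fell by 2.85 (adjusted p 0.00359). Of 6 genes reported elsewhere as targets of these demethylases, Cdkn2b, an inhibitor of the cell cycle, fell by 2.70 from MEFs to pre-iPSCs (adjusted p 0.0123, limma) and Zfp57, which protects imprints, rose by 2.42 (adjusted p 0.00834). Nanog was listed at 0 in both MEF libraries and in pre-iPSC replicate 2, at 0.519 FPKM in pre-iPSC replicate 1, and at 49.5 and 73.6 in iPSCs. Tcl1 was listed at 0 in MEFs and in pre-iPSC replicate 1, at 0.449 FPKM in pre-iPSC replicate 2, and at 10.5 and 8.13 in iPSCs. In iPSCs against pre-iPSCs 3 of the 6 were higher (Nanog, Tcl1 and Tcfcp2l1), beside 3.91% of all genes. In iPSCs against MEFs 4 were higher and 1 lower, beside 10.3% and 15.5%. The medians of the 6 were 0.68, 0.51 and 2.26. Nanog is also among the pluripotency genes summed above, and the paper treats Tcfcp2l1 as a pluripotency marker. The part of cell identity in these counts was not tested. Over these lists 50 calls were made, and 12 of them were kept in all 6 fits that leave out 1 library, among them those of Jarid2 in pre-iPSCs and iPSCs and that of Jhdm1d. Of the calls named above, those of Suv39h2, of Kdm1a and of Yaf2 in pre-iPSCs were kept in 1 of the 6 fits. Suv39h2 and Yaf2 kept theirs without MEF replicate 1 and Kdm1a without MEF replicate 2. Rybp in iPSCs, and Gsto1 and Tcfcp2l1 in iPSCs against pre-iPSCs, kept theirs in 2 of 6, losing them without any 1 of the 4 pre-iPSC and iPSC libraries. Tet2 lost both calls without MEF replicate 2, and also without either pre-iPSC library in pre-iPSCs and either iPSC library in iPSCs. Cdkn2b and Gsto2 in pre-iPSCs were lost without either iPSC library or pre-iPSC replicate 2. Slc2a1 in pre-iPSCs was lost without either pre-iPSC library and Zfp57 without pre-iPSC replicate 2. Kdm5b, Hspbap1, Yaf2 and Tcl1 in iPSCs were lost without either iPSC library, for Tcl1 in the comparison with pre-iPSCs. In each comparison the fits without a pre-iPSC or iPSC library also called fewer of all genes than the full fit. The fits without a MEF library called more.

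The start sites of 6 of the 7 enzymes lie in DNA with more CpG than the median promoter, and unmethylated CpG is what Kdm2a and Kdm2b themselves bind. From 250 bases before to 50 after the start, the promoters held between 13 CpG (Kdm4a) and 40 CpG (Kdm3a), where the median of 20153 promoters of this length was 15. Kdm4a was the only member below that median. The GC content was between 53.3% (Kdm4a) and 74.3% (Kdm3b), beside a median of 57.3%. The letters ACGTG or GCGTG, the core of the hypoxia response element, were read on either strand in 4 of 7 (Kdm2a, Kdm2b, Kdm4b and Kdm4c) and in 51.1% of all promoters. CACGTG, which reads ACGTG on both strands and so counts for 2 matches of that core, was present in 3 of 7 and in 8.06% of all. CCAAT was present in 2 of 7 and in 38.1%, and GGGCGG in 5 of 7 and in 49.1%. A match is a description of the letters only.

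The 250 bases before the start are shown, from the mm9 genome and 5' to 3' on the strand of the gene, for the 3 enzymes that were higher in iPSCs than in MEFs. For Kdm2b those before the start of the shorter transcript Kdm2b-013 are shown as well, because edgeR, though not DESeq2, called a change of the mark H3K27me3 there, and that call was lost without single libraries. Capitals are ACGTG or GCGTG on either strand.

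Kdm2b, start used in the tables, chr5:123439102-123439351, minus strand: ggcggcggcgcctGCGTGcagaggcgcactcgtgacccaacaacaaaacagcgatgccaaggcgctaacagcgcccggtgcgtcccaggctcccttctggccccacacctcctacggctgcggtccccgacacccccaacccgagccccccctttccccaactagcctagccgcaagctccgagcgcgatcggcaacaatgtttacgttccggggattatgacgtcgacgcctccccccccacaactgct

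Kdm2b, start of Kdm2b-013, chr5:123402516-123402765, minus strand: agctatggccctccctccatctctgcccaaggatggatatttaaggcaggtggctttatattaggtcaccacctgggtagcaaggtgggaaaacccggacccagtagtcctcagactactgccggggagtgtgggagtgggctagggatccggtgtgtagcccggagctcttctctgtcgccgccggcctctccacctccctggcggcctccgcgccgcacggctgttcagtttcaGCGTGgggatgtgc

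Kdm3a, chr6:71582681-71582930, minus strand: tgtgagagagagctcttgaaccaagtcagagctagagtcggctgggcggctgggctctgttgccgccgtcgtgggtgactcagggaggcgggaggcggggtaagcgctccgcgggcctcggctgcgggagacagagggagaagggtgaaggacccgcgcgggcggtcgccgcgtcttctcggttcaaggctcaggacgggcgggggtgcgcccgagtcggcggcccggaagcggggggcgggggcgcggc

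Kdm4c, chr4:73897533-73897782, plus strand: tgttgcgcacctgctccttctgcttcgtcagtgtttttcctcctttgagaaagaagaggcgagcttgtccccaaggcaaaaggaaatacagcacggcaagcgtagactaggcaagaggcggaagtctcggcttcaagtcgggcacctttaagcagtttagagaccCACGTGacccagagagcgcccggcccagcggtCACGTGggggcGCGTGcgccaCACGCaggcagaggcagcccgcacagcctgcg

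In these stretches Kdm4c has 2 copies of CACGTG and in all 6 matches of the core, between 85 and 32 bases before the start. Kdm2b has 1 match, 237 bases before its start, Kdm2b-013 has 1, 14 bases before its start, and Kdm3a has 0, the only one of the 4 with none.

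H3K4me3, a mark of active and poised promoters, was found within 1000 bp of the starts of all 7 enzymes in MEFs. Reads of called nucleosomes were counted within 1000 bp of the start and are given as RPKM, which scales them to the window length and to the uniquely mapped reads of the library. Above 1 RPKM were 7 and 7 of the enzymes in the MEF libraries, 7 and 4 in those of pre-iPSCs, and 5 and 4 in those of iPSCs. Of all genes 56.4% and 47.3%, 40.5% and 35.9%, and 41.1% and 34.4% were above it. The study set the cut of 1 RPKM for 500 bp on either side of a start. Within 500 bp fewer of the enzymes were above it in every library but MEF replicate 1. In MEF replicate 2 Kdm2a and Kdm4b were then below it, at 0.700 and 0.636 RPKM. The median of the 7 was above the median of all genes in every library, 1.90 beside 1.22 RPKM in MEF replicate 1 and 1.02 beside 0.822 in iPSC replicate 2 at the extremes.

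Kdm2b and Kdm4c, whose expression was higher in iPSCs than in MEFs, had a lower RPKM of the mark in iPSCs, without passing the test. On this scale 44.4% of all 20156 windows were lower in iPSCs than in MEFs without overlap of the libraries. Kdm2b was marked at 2.44 and 1.81 RPKM in the MEF libraries, 1.26 and 1.62 in those of pre-iPSCs and 1.21 and 1.15 in those of iPSCs. The 3 cell types did not overlap, with MEFs highest and iPSCs lowest, and the change in iPSCs against MEFs was -0.50 (edgeR, adjusted p 0.16). Kdm4c was marked at 2.51 and 1.94 RPKM in the MEF libraries, 1.32 and 1.23 in those of pre-iPSCs and 1.55 and 0.888 in those of iPSCs. Here too the MEF libraries were the highest, and the change was -0.51 (edgeR, adjusted p 0.147). Kdm3a had 1.69 and 1.27, 1.23 and 0.942, and 1.37 and 0.987 RPKM in the same order, with overlap between iPSCs and MEFs.

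Kdm3b was marked at 1.90 and 1.34 RPKM in the MEF libraries, 1.10 and 0.974 in those of pre-iPSCs and 0.745 and 0.888 in those of iPSCs. Its libraries did not overlap between any 2 cell types, with MEFs highest, and its change in iPSCs against MEFs was -0.63 (edgeR, adjusted p 0.106). The other 3 overlapped between cell types in at least 1 comparison, with Kdm2a between 0.974 and 1.77, Kdm4a between 1.20 and 2.51 and Kdm4b between 0.776 and 1.51 RPKM. On this RPKM scale a higher level in MEFs was common. In iPSCs 3 of 7 enzymes were below MEFs without overlap, beside 44.4% of 20156 windows, and 0 above, beside 15.5%. In pre-iPSCs 6 of 7 were below MEFs, beside 46%, and 0 above, beside 11.3%. Against pre-iPSCs, iPSCs were below for Kdm2b and Kdm3b, 2 of 7 beside 15.6%, and above for Kdm4a, 1 of 7 beside 20.8%. By edgeR 0 of 7 were called in each comparison, where 3.85%, 0% and 13.7% of 17700 windows were called for pre-iPSCs against MEFs, iPSCs against pre-iPSCs and iPSCs against MEFs. DESeq2 also called 0 of 7 in each, beside 0.207%, 0% and 0.714% of the windows to which it gave an adjusted p. At an unadjusted p below 0.05 edgeR counted 0, 0 and 3 enzymes (Kdm2b, Kdm3b and Kdm4c), beside 19.6%, 8.93% and 29.9% of all windows, so that 3 of 7 is near the share of all windows.

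Scaling decides some of this. With libraries scaled to uniquely mapped reads in place of TMM factors, the median change of all windows moved to -0.40 in pre-iPSCs and -0.38 in iPSCs against MEFs. Kdm3b (-0.98, adjusted p 0.0284, edgeR) and Kdm4c (-0.86, adjusted p 0.0455, edgeR) were then called lower in iPSCs than in MEFs. Over all windows this scaling called 232 higher and 1134 lower in pre-iPSCs, where TMM called 540 and 141, and 842 higher and 2370 lower in iPSCs, where TMM called 1724 and 709.

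**Figure D3:**
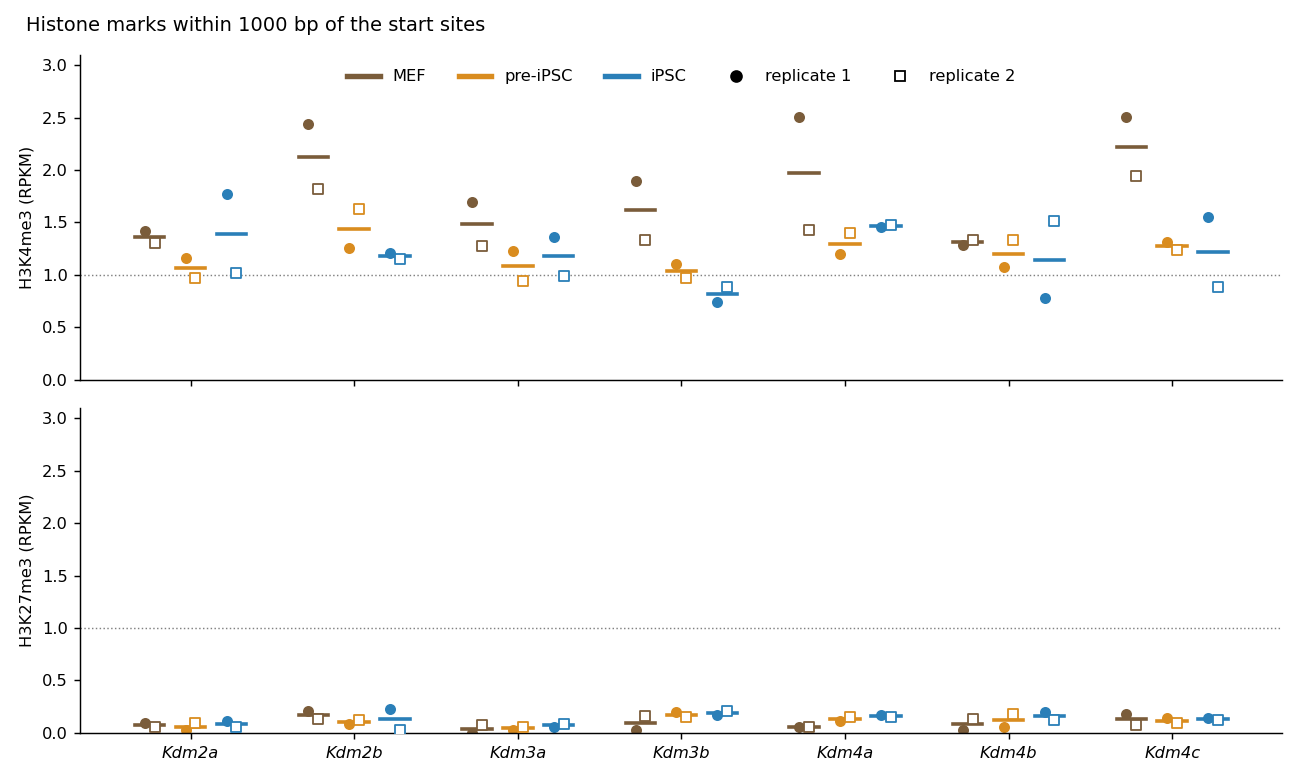
H3K4me3 (upper panel) and H3K27me3 (lower panel) in RPKM within 1000 bp of the start of each demethylase, on the same linear scale from 0, with circles for replicate 1, squares for replicate 2, bars for their mean and a dotted line at 1 RPKM. H3K4me3 lies between 0.745 and 2.51 RPKM and H3K27me3 does not exceed 0.230.

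H3K4me3 lay mostly downstream of the starts. Of the reads within 1000 bp, 30.0% to 40.6% were upstream of the start for the 7 enzymes and 39.6% to 42.9% for all genes, by library. Summed over the 6 libraries, the stretch of 200 bp with most reads began at the start itself in Kdm4a (57 of 293 reads), 100 bp downstream in Kdm2a (54 of 239) and Kdm3b (41 of 215), and 200 bp downstream in Kdm4c (66 of 293). In Kdm2b it lay from 700 to 899 bp downstream (63 of 294 reads), and in Kdm3a (44 of 233) and Kdm4b (38 of 227) from 800 bp on, the last stretch of the window. A further 233 and 183 reads lay downstream of the window in these genes, so its edge limits where their stretch could lie. Kdm2b and Kdm3a also had 37 and 33 reads in the 200 bp upstream of the start, where the other 5 had between 2 and 9.

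**Figure D4:**
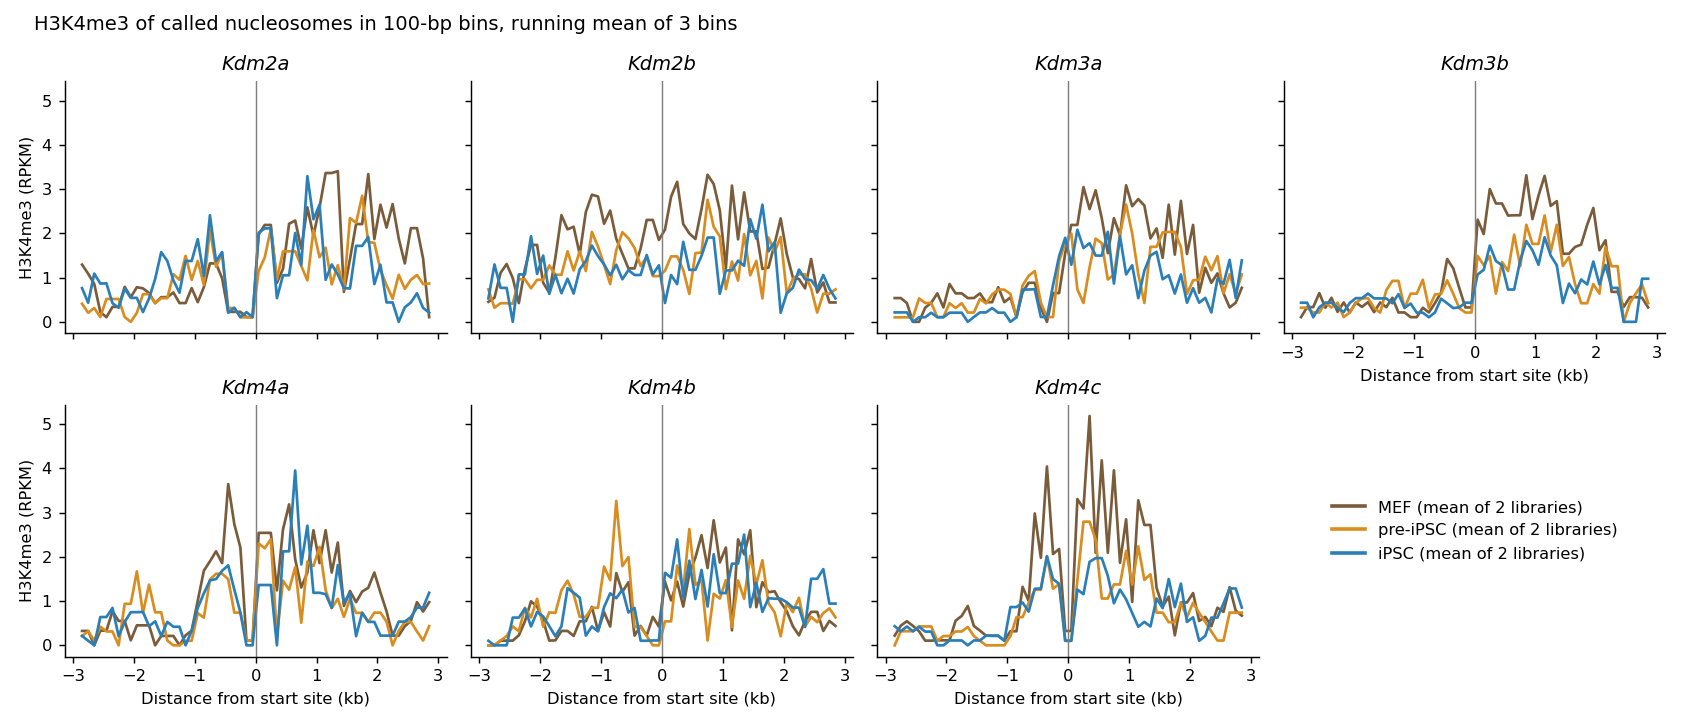
H3K4me3 (RPKM, linear) by distance of the nucleosome centre from the start (kb, negative is upstream) for each demethylase, as the mean of the 2 libraries of a cell type in bins of 100 bp, smoothed over 3 bins. Kdm2a, Kdm4a, Kdm4b and Kdm4c, with 2 to 5 reads in the 200 bp upstream of the start, dip there in all cell types, and Kdm2b, with 37 reads, does not.

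H3K27me3, the mark of Polycomb repression, was low at the starts used in the tables, as it was at most genes. Each window held between 0 and 8 reads, up to 0.230 RPKM, and 0 of 7 were above 1 RPKM in any of the 6 libraries. Of all genes 0.938% to 2.61% were above it, by library. The median of the 7 was 0.0606 to 0.173 RPKM, beside 0.182 to 0.259 for all genes. The 0 reads of Kdm3a in MEF replicate 1 have an exact Poisson upper limit (95% interval) of 3.69 reads or 0.112 RPKM, counting error only. No enzyme reached the edgeR filter, which 10407 windows passed with 8.1%, 0.798% and 11.2% of them called. Without the filter edgeR called 0 of 7 in each comparison, beside 3.71%, 0.247% and 6.08% of 19833 windows, and counted 0 at an unadjusted p below 0.05, beside 15.5%, 8.63% and 20%, and DESeq2 was not run without it.

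The annotation (GENCODE) holds 11 further starts of these genes that lie over 1000 bp from those in the tables. They were tested together with all other such starts, a choice made after the data were seen, and of the 11, 10 passed the filter for H3K4me3 and 6 for H3K27me3. The start of Kdm2b-013 lies 36586 bp into the gene, in intron 6 of the long transcript Kdm2b-001. It held 33 and 41 H3K27me3 reads in the MEF libraries, 17 and 14 in those of pre-iPSCs and 18 and 18 in those of iPSCs, which was 1.00 and 1.09, 0.478 and 0.428, and 0.518 and 0.537 RPKM. Both MEF libraries were above every other library, and pre-iPSCs and iPSCs lay close together. The mark was lower by 1.28 on the log2 scale in pre-iPSCs (SE 0.33, adjusted p 0.00619, edgeR, beside 8.35% of all starts called) and by 1.10 in iPSCs (SE 0.32, adjusted p 0.0141, edgeR, beside 11.7%) than in MEFs. Between pre-iPSCs and iPSCs it differed by 0.18 (adjusted p 0.93, edgeR, beside 0.79%). It was the only one of the 6 starts called for this mark.

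DESeq2 did not call this start (adjusted p 0.301 in pre-iPSCs and 0.385 in iPSCs against MEFs). The edgeR call in pre-iPSCs was lost without pre-iPSC replicate 1 or 2 (adjusted p 0.0615 and 0.0763), and that in iPSCs without MEF replicate 2, iPSC replicate 1 or iPSC replicate 2 (0.0512, 0.128 and 0.0565). H3K4me3 at the same start was 1.56 and 1.18 RPKM in the MEF libraries, 1.10 and 0.714 in those of pre-iPSCs and 1.30 and 1.09 in those of iPSCs, and was not called. In MEFs H3K4me3 was above 1 RPKM there in both libraries. H3K27me3 was just under 1 RPKM in replicate 1 and above it in replicate 2, in bulk chromatin and not shown to lie on the same nucleosome. The study set this cut for 500 bp on either side, and the further starts were counted within 1000 bp only. H3 at this start was 1.52 RPKM in pre-iPSC replicate 1 and 0.752 in iPSC replicate 1 and between 0.329 and 0.368 in the other 4 libraries, and its part in these values was not tested. The FPKM tables give 1 value per gene and do not separate the transcripts of Kdm2b.

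**Figure D5:**
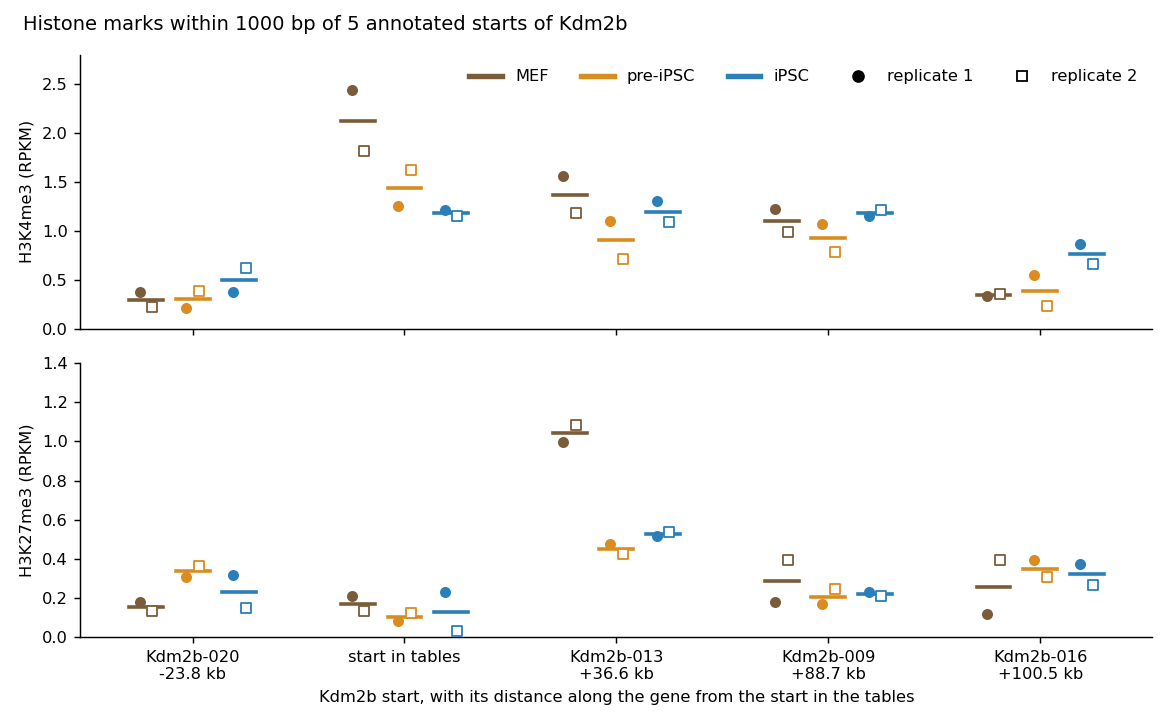
H3K4me3 and H3K27me3 (RPKM within 1000 bp, linear, from 0) at 5 annotated starts of Kdm2b, ordered by distance along the gene, with circles for replicate 1, squares for replicate 2 and bars for their mean. H3K27me3 of the MEF libraries reaches 1.00 and 1.09 RPKM at the start of Kdm2b-013, where the other 4 libraries lie between 0.428 and 0.537.

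H3K4me3 was called at 3 of the 10 further starts in iPSCs against MEFs, beside 16.4% of all starts, at 2 in pre-iPSCs against MEFs, beside 5.23%, and at 0 in iPSCs against pre-iPSCs, beside 0.0857%. All calls were gains, at starts inside exons that had less than 0.5 RPKM of the mark in both MEF libraries. At Kdm4b-003, in exon 12, the libraries had 0.0677 and 0.191 RPKM in the MEF libraries, 0.613 and 0.227 in those of pre-iPSCs and 0.590 and 0.329 in those of iPSCs (edgeR 1.94 in pre-iPSCs and 2.01 in iPSCs, adjusted p 0.0341 and 0.0112). The libraries with most of the mark, replicate 1 of pre-iPSCs and of iPSCs, also held 702 and 346 H3 reads at this start, where the other 4 held 66 to 90. In iPSC replicate 1 H3K27me3 (0.864 RPKM, 0.121 to 0.394 in the other 5) and H3K9me3 (0.827 RPKM, 0.361 and 0.437 in the other 2) were highest there as well, and the part of this in the gain was not tested. At Kdm4c-005, in exon 2, they had 0.203 and 0.478, 0.797 and 0.747, and 0.465 and 1.15 RPKM (edgeR 1.43 and 1.44, adjusted p 0.0371 and 0.0165), with overlap between iPSCs and MEFs. At Kdm2b-016, in exon 13, they had 0.339 and 0.350, 0.552 and 0.227, and 0.869 and 0.658 RPKM, and the change of 1.37 in iPSCs was called (adjusted p 0.0174, edgeR). H3 at this last start was 1.47 RPKM in pre-iPSC replicate 1 and 0.604 in iPSC replicate 1 beside 0.385 to 0.436 in the other 4, and its part was not tested. DESeq2 called none of these, giving 0.469 and 0.234 for Kdm4c-005, 0.264 for Kdm2b-016 and no adjusted p for Kdm4b-003, and without MEF replicate 1 edgeR called none of them.

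H3K9me3, a substrate of the KDM4 enzymes, was measured in 1 library per cell type, so it has no replicate check. The MEF library held 19 reads in the 7 windows together (95% exact Poisson interval 11.4 to 29.7), the pre-iPSC library 35 (24.4 to 48.7) and the iPSC library 54 (40.6 to 70.5), counting error only. Their mean level in the same order was 0.0890, 0.156 and 0.255 RPKM, and the median of the 7 was 0.0656, 0.125 and 0.331 beside 0.197, 0.218 and 0.265 for all genes. Single windows held 2 to 4, 3 to 9 and 4 to 11 reads. Above 1 RPKM were 0 of 7, beside 0.154%, 0.109% and 0.243% of all genes. The intervals of MEFs and iPSCs do not overlap, which compares these 2 libraries and not the cell types. H3 of the same replicate number held 180, 1074 and 708 reads in these windows in MEFs, pre-iPSCs and iPSCs, and its part in the H3K9me3 values was not tested.

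H3, which counts all nucleosomes, had a median over the 7 enzymes below that of all genes in 5 of 6 libraries, by a small margin in replicate 1 of iPSCs. The medians were 0.128 beside 0.218 and 0.135 beside 0.207 RPKM in the MEF libraries, 0.596 beside 0.550 and 0.116 beside 0.204 in those of pre-iPSCs and 0.396 beside 0.408 and 0.162 beside 0.238 in those of iPSCs. H3 was between 0.0717 and 0.270 RPKM in 4 libraries, and between 0.458 and 0.762 in replicate 1 of pre-iPSCs and 0.324 and 0.524 in replicate 1 of iPSCs. These 2 libraries stood apart over all genes as well, with medians of 0.550 and 0.408 RPKM beside 0.204 to 0.238 in the other 4. From 150 bp before to 50 bp after the start, the pooled H3 reads of the 7 enzymes were compared with the flank (beyond 1000 bp upstream). Per base, the ratio was 0.138 to 0.310 in 5 libraries and 1.07 in replicate 1 of pre-iPSCs. Only 5 to 18 reads lay near the start in the 5 libraries. In replicate 1 of pre-iPSCs Kdm2b and Kdm3a held 26 and 32 of the 67 reads, and the other enzymes 0 to 4 each. The same ratio over all genes was 0.544 to 0.895 in the 5 libraries and 1.33 in replicate 1 of pre-iPSCs, above that of the enzymes in each library. In each comparison edgeR and DESeq2 called 0 of the 7 enzymes and 0% of 19560 windows, and counted 0 of the 7 at an unadjusted p below 0.05, which 1.91%, 0.537% and 1.51% of all windows had by edgeR and 0.997%, 0.204% and 0.685% by DESeq2. Without replicate 2 of pre-iPSCs edgeR called 4589 windows in pre-iPSCs against MEFs and 2146 in iPSCs against pre-iPSCs, again with 0 of the 7.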

How the data were processed

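The authors aligned the ChIP-seq reads to mm9 with Bowtie 1.0.1, kept unique reads and used GeneTrack to call nucleosomes. The deposited files give the count of reads of each call (12007350 to 15222040 reads per library of a mark and 67362868 to 108211816 of H3) and its fuzziness, which was not used. For RNA-seq the authors used TopHat2 2.0.4 and Cufflinks 2.0.2 (versions from the submitters' processing notes), and the deposited unit is FPKM, which carries no depth, in 2 tables with 1 replicate of every cell type each.

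Expression was tested with limma 3.58.1 (trend, table as a term) on log2(FPKM + 1), which understates changes of low genes, for genes of a mean of at least 0.5 FPKM, and called at an adjusted p below 0.05 and 2-fold. Reads of calls were counted by nucleosome centre and tested with the quasi-likelihood test of edgeR 4.0.16 after filterByExpr and TMM scaling, with DESeq2 1.42.0 as an alternative. All p-values were adjusted by Benjamini-Hochberg over all features tested. The SE beside an edgeR change was worked back from that change and its test statistic, and adds no information to the p-value. An exact permutation test of 2 against 2 cannot go below 0.33, so single values carry no p. RPKM uses the study's numbers of uniquely mapped reads. Scripts were tested on simulated data.

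The 7 enzymes and the gene lists were chosen with earlier results of these data known. Besides the enzymes, the text names up to 3 called genes of a list per comparison, those with the largest change, and the 2 genes most like each enzyme. Promoters were read from the mm9 genome. RNA strand is not given in the sources used here, and a lincRNA overlaps Kdm3b and a small nucleolar RNA overlaps Kdm4a on the other strand. No sample analysed here is described as treated with vitamin C, and whether the iPSCs were derived with it is not given, as said above.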

Additional observations from a re-analysis of the deposited data

How the results depend on the processing

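In expression, a pseudocount of 0.1, quantile normalization, no replicate block, no trend and no fold threshold left 1, 0 and 3 enzymes called in pre-iPSCs against MEFs, iPSCs against pre-iPSCs and iPSCs against MEFs. With no filter on low values 0 enzymes were called in both comparisons with MEFs. Of all 20156 genes this setting called 0 in pre-iPSCs against MEFs and 549 in iPSCs against MEFs. The limma adjusted p was 0.179 for Kdm3a in pre-iPSCs, and 0.0886 for Kdm2b, 0.154 for Kdm3a and 0.111 for Kdm4c in iPSCs. Leaving out 1 library gave 0 to 5 calls in pre-iPSCs against MEFs and 0 to 3 in iPSCs against MEFs. Same-numbered libraries did not deviate together throughout (correlations of deviations 0.35, -0.20 and 0.11 in expression and between -0.07 and 0.76 in chromatin), so pairing by number was not established, although H3 of pre-iPSCs and iPSCs deviated together (0.76). The expression fit has the deposited table as a term, and since each table holds the libraries of 1 number this is a block on the number, while the chromatin fits have none. The fit of H3K4me3 with a replicate block called 0 enzymes in each comparison, and at the Kdm2b-013 start this block gave adjusted p of 0.00533 and 0.0134 for H3K27me3. For H3K4me3, scaling to uniquely mapped reads called 2 enzymes in iPSCs against MEFs in place of 0. With calls of at least 2 reads, mean H3K9me3 was 0.0281, 0.0446 and 0.161 RPKM in MEFs, pre-iPSCs and iPSCs, in the same order of size as before. The cause of these changes was not tested, apart from the fewer libraries or reads used.

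Over all genes, expression calls (2032, 1069 and 3206) ranged from 0 to 2179, 170 to 1218 and 549 to 3436 over the other settings, lowest without the filter, and from 1025 to 2869, 36 to 2133 and 655 to 3691 with 1 library left out. H3K4me3 calls (681, 0 and 2433) were 31, 0 and 119 by DESeq2 and up to 1366, 21 and 3212 scaled to unique reads, and 98 to 905, 0 to 70 and 600 to 2286 with 1 library left out. H3K27me3 calls (843, 83 and 1167) were as low as 45, 0 and 19 by DESeq2. Of the log2 changes printed for the 7 enzymes and the Kdm2b-013 start, 274 recomputed values kept their direction and side of the threshold, 28 lost the call, 6 gained one and 7 changed sign. All 7 were uncalled expression changes with 1 library left out, which gave -0.027 to 0.48 for Kdm2a in pre-iPSCs against MEFs, -0.77 to 0.28 for Kdm3a, -1.15 to 0.042 for Kdm3b and -1.22 to 0.039 for Kdm4a in iPSCs against pre-iPSCs, and -0.070 to 1.12 for Kdm3b and -0.51 to 0.79 for Kdm4a in iPSCs against MEFs. Over all 7 enzymes and 3 comparisons, 28 of 252 recomputed H3K4me3 changes and 35 of 252 H3 changes also changed sign, none of them called in either fit and none of them a change printed in the text. H3K27me3 and H3K9me3 rest on few reads per window, and small differences were not detectable at this depth.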
